A study of Mus musculus with 6 samples.

Results

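The co-inhibitory receptors are surface proteins that dampen T cell activation, and the genes described here encode 8 of them together with 2 ligands of PD-1. The 10 genes are Pdcd1, Ctla4, Lag3, Havcr2, Tigit, Btla, Vsir, Cd160, Cd274 and Pdcd1lg2. They were chosen by symbol and matched to the Ensembl gene IDs of the count table through GENCODE M21. All 10 had a row among the 52856 rows of the table, and all 10 were among the 14387 rows that passed the low-count filter. RNA-seq had been done on splenic CD4+ T cells of C57BL/6 mice aged 8 weeks, either miPEP31-/- (miPEP31 KO, 3 libraries) or wild type (WT, 3 libraries). Both genotypes had been stimulated for 48 hours with antibodies to CD3 and CD28, so there is no resting sample and every value below is from activated cells. How the miPEP31-/- allele was made, how CD4+ cells were isolated and whether each library is a separate animal are not given in the labels, so p-values measure the spread between these libraries only.

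CTLA-4 competes with the costimulatory receptor CD28 for CD80 and CD86. PD-1 binds PD-L1 and PD-L2, encoded by the neighbouring genes Cd274 and Pdcd1lg2, and recruits phosphatases that blunt signalling from the T cell receptor and CD28. LAG-3 binds MHC class II, TIM-3 (Havcr2) binds galectin-9 among other ligands, TIGIT competes with CD226 for PVR and nectin-2, BTLA and CD160 both bind HVEM (Tnfrsf14), and VISTA (Vsir) is a receptor and ligand of naive T cells and myeloid cells. CTLA-4, PD-1, LAG-3 and TIM-3 are induced by activation, and CTLA-4 and TIGIT are abundant on regulatory T cells.

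Library totals were 22865487 to 26295776 counts in KO and 23398486 to 24018687 in WT. Levels are given as CPM, the count over the library size after TMM scaling. On principal components, KO and WT lay apart on the axis with 74.9% of the variance, and on the next axis (10.4%) KO replicate 1 lay at 31.8, KO replicate 3 at -35.5 and the WT libraries at 1.2 to 3.9. Mir31 was listed at 0 throughout, which leaves the genotype unchecked by these counts. Of the marker genes of CD4 T cells, Cd4 had 295, 311 and 301 CPM in KO and 498, 450 and 421 CPM in WT, and 5 of the 7 markers were lower (Cd4, Trac, Cd3d, Cd3e and Cd3g, with log2 fold changes of -0.59, -0.53, -0.30, -0.22 and -0.30). Cd28 did not pass and Cd5 was higher (0.73), at 647, 625 and 591 CPM in KO and 391, 355 and 377 CPM in WT, and the 7 summed to 1641 to 1702 CPM in KO and 1690 to 1821 CPM in WT.

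In the KO, both PD-1 ligands and Pdcd1 itself were higher, and Vsir, Cd160, Btla and Lag3 were lower. With the edgeR quasi-likelihood test (adjusted p under 0.05 over all rows), 3 of the 10 genes were higher, 4 were lower and 3 did not pass. Of all 14387 rows tested, 25.1% were higher and 22.2% lower, or 47.3% in all. The 7 calls of 10, and the counts for every gene list and marker list given here, are to be read against those shares. The median log2 fold change was -0.41 over the 10 genes and 0.01 over all rows. For 8 of the 10 genes the genotypes had no overlap, with all KO libraries above WT for 3 (30.6% of all rows) and below WT for 5 (28.4% of all rows, 59.1% in both directions).

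**Figure D1:**
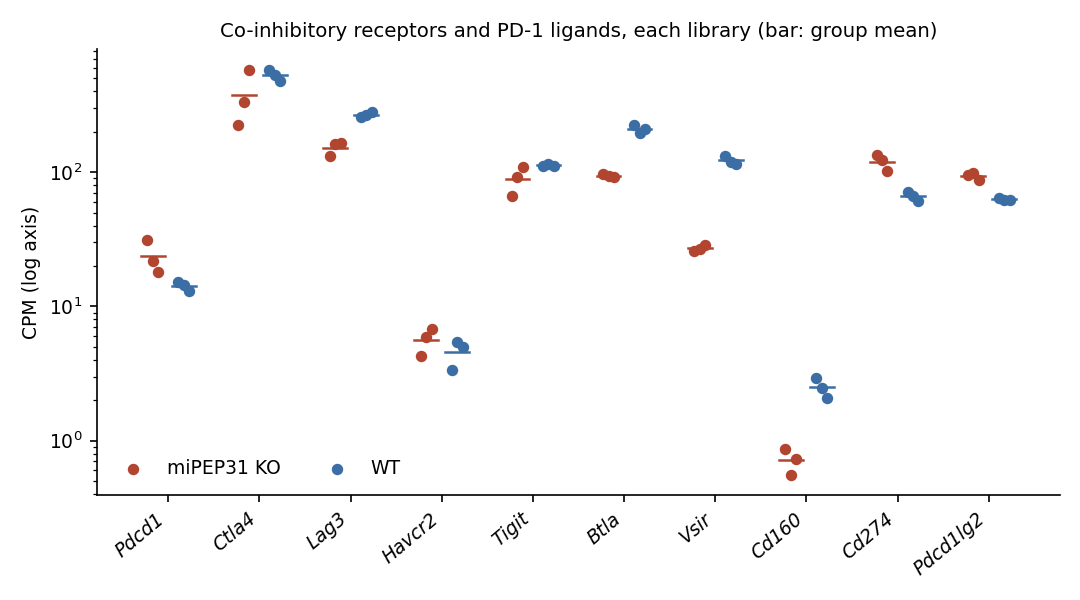
CPM on a log axis of each of the 10 genes in the 3 miPEP31 KO (red, left) and 3 WT (blue, right) libraries, with the group mean as a bar. Vsir lies at 25.7 to 28.7 CPM in KO and 116 to 133 CPM in WT, and the Ctla4 libraries of KO spread from 225 to 577 CPM.

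**Figure D2:**
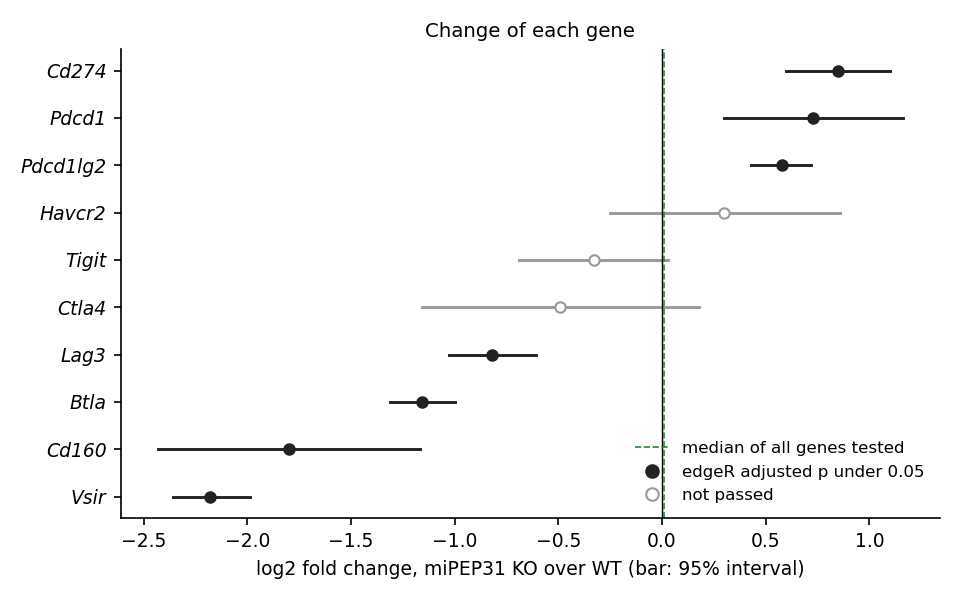
Log2 fold change of each gene, miPEP31 KO over WT, with its 95% interval from the edgeR fit. Filled points passed an adjusted p of 0.05, open points did not, and the dashed line is the median of all genes tested. The values run from -2.18 for Vsir to 0.85 for Cd274.

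The ligands of PD-1 rose together. Cd274 (ENSMUSG00000016496, chromosome 19, 29367455 to 29388095, plus strand, GRCm38), which encodes PD-L1, had 135, 123 and 102 CPM in KO and 71.0, 67.0 and 60.9 CPM in WT. Every KO library lay above every WT library, and the 1.81-fold rise corresponded to a log2 fold change of 0.85 in edgeR (SE 0.11, adjusted p = 5.21e-04). Pdcd1lg2 (ENSMUSG00000016498, chromosome 19, 29410919 to 29471161, plus strand), which encodes PD-L2, had 95.5, 98.1 and 87.4 CPM in KO and 63.9, 62.4 and 62.2 CPM in WT. Its groups were also apart, with a 1.49-fold rise (edgeR log2 fold change 0.58, SE 0.06, adjusted p = 2.71e-04). The ratio of Cd274 to Pdcd1lg2 within a library, each per kb of exon, was 0.763, 0.677 and 0.630 in KO and 0.602, 0.581 and 0.530 in WT. That ratio was above the WT range in every KO library, a difference that was not tested, and Pdcd1lg2 was the more abundant of the pair per length in every library. Of 7 such ratios between paired genes, 2 had KO and WT ranges apart, this one and that of Btla to Tnfrsf14. The other 5 overlapped, among them the ratio of Cd274 to Pdcd1.

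Pdcd1 (ENSMUSG00000026285, chromosome 1, 94038305 to 94052553, minus strand), the gene of PD-1, had 31.1, 21.9 and 18.1 CPM in KO and 15.3, 14.4 and 13.0 CPM in WT. All KO libraries stood above all WT libraries, with KO replicate 1 highest. The gene rose 1.66-fold (edgeR log2 fold change 0.73, SE 0.19, adjusted p = 0.0139). The call did not hold without WT replicate 3 (edgeR log2 fold change 0.67, adjusted p = 0.0595), and leaving out KO replicate 1 gave 0.48 on the log2 scale (edgeR adjusted p = 0.00891).

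The promoters of these 3 genes are shown because they are the members that rose, and that of Vsir because it fell most. Each window is RefSeq sequence of GRCm38.p6, 250 bases before to 50 bases after the annotated start, in the direction of the gene. Capitals mark matches, on either strand, to AANNGAAA, the core that interferon regulatory factors bind.
Cd274 (chr19:29367188-29367487, plus strand): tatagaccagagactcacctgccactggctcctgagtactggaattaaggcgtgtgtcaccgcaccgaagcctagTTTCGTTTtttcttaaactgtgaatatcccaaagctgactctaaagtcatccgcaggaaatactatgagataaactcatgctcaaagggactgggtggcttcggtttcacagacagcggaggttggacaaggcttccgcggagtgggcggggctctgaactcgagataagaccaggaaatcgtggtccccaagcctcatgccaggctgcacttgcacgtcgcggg
Pdcd1lg2 (chr19:29410669-29410968, plus strand): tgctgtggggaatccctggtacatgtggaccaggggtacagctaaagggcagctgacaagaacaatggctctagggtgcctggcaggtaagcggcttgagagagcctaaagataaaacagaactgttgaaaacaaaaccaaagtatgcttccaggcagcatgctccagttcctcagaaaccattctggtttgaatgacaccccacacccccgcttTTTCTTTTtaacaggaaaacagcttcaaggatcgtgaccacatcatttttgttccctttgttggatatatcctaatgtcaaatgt
Pdcd1 (chr1:94052504-94052803, minus strand): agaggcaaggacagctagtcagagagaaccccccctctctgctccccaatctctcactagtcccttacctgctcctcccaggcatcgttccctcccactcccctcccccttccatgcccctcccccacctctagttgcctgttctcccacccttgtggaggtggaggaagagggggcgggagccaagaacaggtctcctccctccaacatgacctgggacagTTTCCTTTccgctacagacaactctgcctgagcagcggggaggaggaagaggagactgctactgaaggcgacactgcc
Vsir (chr10:60346601-60346900, plus strand): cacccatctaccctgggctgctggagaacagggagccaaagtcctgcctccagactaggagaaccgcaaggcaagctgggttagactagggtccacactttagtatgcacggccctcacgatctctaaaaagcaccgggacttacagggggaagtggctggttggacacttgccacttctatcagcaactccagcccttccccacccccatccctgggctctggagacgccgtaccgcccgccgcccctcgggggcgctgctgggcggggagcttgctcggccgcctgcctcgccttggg

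Of the 10 genes, 9 had a window in the RefSeq table, with 10 windows in all because Cd160 had 2 starts. All 7 motifs searched, on both strands, are given here. AANNGAAA was found once each in Cd274 (TTTCGTTT on the printed strand, positions -175 to -168 with the annotated start at 0), Pdcd1lg2 (TTTCTTTT, positions -35 to -28) and Pdcd1 (TTTCCTTT, positions -28 to -21), and in none of the windows of Ctla4, Havcr2, Tigit, Btla, Vsir and Cd160. The letters occur in 23.9% of all 32851 promoter windows. The longer ISRE core, in which GAAA also stands before the 2 open letters so that it contains the first motif, occurs in 3.44% of windows and was in none of them. TTCNNNGAA, the core bound by STAT dimers (8.3% of windows), was in the downstream window of Cd160, and TGANTCA, the core bound by AP-1 (7.81% of windows), in that of Havcr2. GGAAAAN, the core bound by NFAT (23.3% of windows), was in the windows of Ctla4, Tigit and Pdcd1lg2, and CACGTG, the E-box (7.15% of windows), in that of Btla. CCGGAAGT, bound by ETS factors (3.89% of windows), was in none. The GC content was 63.7% in the Vsir window and 52.7% in the Cd274 window, against a median of 52.7% over all windows.

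Plgrkt, which encodes a plasminogen receptor and lies 65 bases from Cd274, had 40.3, 43.5 and 45.5 CPM in KO and 35.0, 31.4 and 31.3 CPM in WT, and rose by a log2 fold change of 0.40 in edgeR (SE 0.08, adjusted p = 0.00401). On the other side, Ric1 lies 51121 bases beyond Pdcd1lg2 and did not pass (edgeR log2 fold change -0.16, adjusted p = 0.153). An antisense gene annotated across exons of Cd274 was not analysed here, and the sources do not say whether counting used strand.

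A list of 17 genes covered interferon receptors, their kinases and STATs, interferon regulatory factors and other inducers of PD-1 ligands. Of these, 9 were higher (25.1% over all rows), 2 lower (22.2% over all rows) and 6 did not pass, with a median log2 fold change of 0.22. The number higher was 6 without WT replicate 2 and 7 without KO replicate 2 or WT replicate 3. The number lower was 4 without KO replicate 3 and 1 without WT replicate 2. Irf1, the transcription factor through which interferon-gamma is known to induce Cd274, had 217, 190 and 217 CPM in KO and 89.6, 96.7 and 104 CPM in WT (edgeR log2 fold change 1.10, SE 0.08, adjusted p = 4.84e-05). Stat2 rose by 1.87 (SE 0.07) and Irf9, its partner in responses to type I interferon, by 2.06 (SE 0.07) on the log2 scale. Of the receptor genes, Ifnar2 rose by 0.23 (SE 0.07, edgeR adjusted p = 0.0237), and Ifngr1, Ifngr2 and Ifnar1 did not pass. Of the kinase genes, Tyk2 rose by 0.59 (SE 0.06, edgeR adjusted p = 1.63e-04), and Jak1 and Jak2 did not pass. The 2 lower genes were Stat3 (edgeR log2 fold change -0.37, SE 0.09, adjusted p = 0.0104) and Hif1a (-0.36, SE 0.09, adjusted p = 0.0124). Myc did not pass (edgeR log2 fold change -0.48, adjusted p = 0.0527). The part of any of these inducers in the levels of Cd274 and Pdcd1lg2 was not tested.

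Ctla4 (ENSMUSG00000026011, chromosome 1, 60887000 to 60915832, plus strand) had 225, 331 and 577 CPM in KO and 583, 532 and 477 CPM in WT. KO replicate 3 lay within the WT range, near its top, while KO replicates 1 and 2 lay below every WT library. With all libraries the gene did not pass (edgeR log2 fold change -0.49, 95% interval -1.16 to 0.18, adjusted p = 0.196), and that interval holds both no change and a fall of more than 2-fold. Leaving out KO replicate 3 gave a log2 fold change of -0.94 (edgeR adjusted p = 0.00838), and leaving out KO replicate 1 gave -0.23 (edgeR adjusted p = 0.531).

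The genes of the CTLA-4 axis did not move as one. Cd80, a ligand shared by CTLA-4 and CD28, had 7.07, 6.03 and 6.62 CPM in KO and 3.55, 2.62 and 3.53 CPM in WT, and rose by a log2 fold change of 1.02 in edgeR (SE 0.17, adjusted p = 0.00202). Cd86, the other ligand, had 16.3, 16.6 and 23.7 CPM in KO and 7.02, 5.87 and 10.5 CPM in WT, and rose by 1.27 (SE 0.23, edgeR adjusted p = 0.00307). Both are genes of antigen-presenting cells as well as of activated T cells. Summed B cell markers were 60.9 to 113 CPM in KO and 56.5 to 83.4 CPM in WT over 6 genes, of which 3 were higher and 3 did not pass, with Cd79b the most abundant in KO at 14.6, 17.5 and 25.8 CPM. Summed dendritic cell markers were 12.0 to 13.1 CPM in KO and 6.25 to 7.58 CPM in WT. Of those 6 genes Zbtb46 was higher, at 10.6, 10.2 and 7.27 CPM in KO and 5.42, 3.13 and 5.09 CPM in WT. Flt3 had 1.6, 1.41 and 3.23 CPM in KO and 1.52, 1.86 and 0.958 CPM in WT, and Itgax 0.474, 0.968 and 0.903 CPM in KO and 0.52, 0.887 and 0.609 CPM in WT, and neither passed. Xcr1 had 4, 12 and 12 counts in KO and 3, 9 and 3 counts in WT, Siglech had 3 counts in KO replicate 3 alone, and Clec9a, a marker of one dendritic cell subset, was at 0 in all libraries. Macrophage markers summed to 3.54 to 7.23 CPM in KO and 5.09 to 9.23 CPM in WT, with 1 of 7 genes lower (Itgam) and Adgre1 at 0 in all libraries. Cd68, the most abundant, had 2.63, 3.98 and 5.12 CPM in KO and 7.54, 4.86 and 4 CPM in WT and did not pass, nor did Fcgr3. Lyz2, below the filter, went the other way from Itgam, with 5, 7 and 10 counts in KO and 0, 0 and 1 in WT. The part of such cells in Cd80, Cd86 and Cd274 was not tested, and in bulk RNA more cells of a type cannot be told apart from more RNA per cell.

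The chromosome 1 neighbours of Ctla4 are its costimulatory relatives Cd28 and Icos. Cd28 had 158, 182 and 228 CPM in KO and 213, 187 and 191 CPM in WT and did not pass (edgeR log2 fold change -0.06, adjusted p = 0.720). Icos had 80.2, 83.5 and 95.3 CPM in KO and 142, 123 and 107 CPM in WT, and fell by 0.52 on the log2 scale (SE 0.11, edgeR adjusted p = 0.00592). Per kb of exon, the ratio of Ctla4 to Cd28 was 3.75, 4.78 and 6.66 in KO and 7.18, 7.5 and 6.54 in WT, and the ranges overlapped.

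Lag3 (ENSMUSG00000030124, chromosome 6, 124904361 to 124911705, minus strand), whose product resembles CD4 and binds MHC class II, had 132, 161 and 165 CPM in KO and 256, 268 and 283 CPM in WT. The groups were well apart, and the gene was 1.76-fold lower (edgeR log2 fold change -0.82, SE 0.09, adjusted p = 2.82e-04). Its neighbour Cd4, which lies 16140 bases away, also fell (edgeR log2 fold change -0.59, SE 0.07, adjusted p = 4.03e-04). The neighbour on the other side, Ptms, 1976 bases away, rose by 0.27 (SE 0.09, edgeR adjusted p = 0.0411). The ratio of Lag3 to Cd4 per kb of exon was 0.856, 0.988 and 1.05 in KO and 0.982, 1.14 and 1.28 in WT, so the ranges overlapped. Adam17, one of the proteases that shed LAG-3 from the surface, rose by 0.38 (SE 0.06, edgeR adjusted p = 0.00173), and Adam10, the other, did not pass (edgeR log2 fold change 0.01, adjusted p = 0.932).

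Tigit (ENSMUSG00000071552, chromosome 16, 43648867 to 43664146, minus strand) had 66.6, 92.3 and 109 CPM in KO and 111, 116 and 111 CPM in WT. Every KO library was below every WT library, but KO replicate 3 only just, and the gene did not pass (edgeR log2 fold change -0.33, 95% interval -0.69 to 0.03, adjusted p = 0.112). Without KO replicate 3 it was lower at -0.51 (edgeR adjusted p = 0.0124), and leaving out KO replicate 1 gave -0.16 (edgeR adjusted p = 0.125). Nectin2, the gene of a TIGIT ligand, had 1.42, 2.20 and 2.15 CPM in KO and 4.98, 3.72 and 4.31 CPM in WT and fell by 1.17 on the log2 scale (SE 0.23, edgeR adjusted p = 0.00398). Pvr, the gene of the high-affinity ligand, fell by 0.32 (SE 0.11, edgeR adjusted p = 0.0374), with 51.1, 61.7 and 67.9 CPM in KO and 81.2, 74.0 and 70.9 CPM in WT. Cd226, the activating receptor for the same ligands, had 62.5, 48.8 and 30.8 CPM in KO and 75.5, 48.8 and 46.8 CPM in WT and did not pass (edgeR adjusted p = 0.437).

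Havcr2 (ENSMUSG00000020399, chromosome 11, 46454935 to 46481255, plus strand), the gene of TIM-3, was near the bottom of the range in all libraries. It had 4.27, 5.88 and 6.84 CPM in KO and 3.34, 5.45 and 5.01 CPM in WT, with overlapping groups. It did not pass (edgeR log2 fold change 0.30, 95% interval -0.25 to 0.86, adjusted p = 0.337). Its deposited values were estimated counts of which 2 were not whole, the only such values among the 60 of the 10 genes. Lgals9, the gene of galectin-9, was much more abundant, at 280, 233 and 212 CPM in KO and 94.3, 86.9 and 89.9 CPM in WT. It rose by a log2 fold change of 1.42 in edgeR (SE 0.10, adjusted p = 4.43e-05).

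Btla (ENSMUSG00000052013, chromosome 16, 45224315 to 45257670, plus strand) had 97.0, 93.8 and 92.6 CPM in KO and 225, 197 and 210 CPM in WT. The KO libraries were within a range of 0.07 on the log2 scale, and 5.5% of genes tested had a smaller one. All lay far below WT. The gene was 2.23-fold lower (edgeR log2 fold change -1.16, SE 0.07, adjusted p = 1.62e-05). Its ligand gene Tnfrsf14 had 71.3, 62.1 and 66.5 CPM in KO and 69.8, 69.7 and 71.7 CPM in WT and did not pass (edgeR log2 fold change -0.08, adjusted p = 0.363). The ratio of Btla to Tnfrsf14 per kb of exon was 0.576, 0.640 and 0.590 in KO and 1.37, 1.2 and 1.24 in WT, and the ranges were apart. Tnfsf14, which encodes LIGHT, a ligand of HVEM that costimulates T cells, had 9.79, 8.52 and 9.59 CPM in KO and 34.4, 31.2 and 35.3 CPM in WT (edgeR log2 fold change -1.85, SE 0.09, adjusted p = 1.01e-05). Of the genes on either side of Btla, Atg3 rose by 0.30 (SE 0.07, edgeR adjusted p = 0.00769) and Cd200 did not pass (edgeR log2 fold change -0.01, adjusted p = 0.958).

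Cd160 (ENSMUSG00000038304, chromosome 3, 96798763 to 96829351, minus strand), the other receptor of HVEM, was the least abundant of the 10. It had 20, 15 and 17 counts in KO and 68, 58 and 48 counts in WT, or 0.863, 0.558 and 0.731 CPM in KO and 2.95, 2.45 and 2.09 CPM in WT. The gene was 3.48-fold lower (edgeR log2 fold change -1.80, SE 0.27, adjusted p = 0.00121). CD160 is mainly a gene of natural killer cells, gamma delta T cells and CD8 T cells. Summed natural killer cell markers were 0.690 to 1.2 CPM in KO and 1.08 to 2.15 CPM in WT, gamma delta T cell markers 34.5 to 48.5 CPM in KO and 22.0 to 28.3 CPM in WT, and CD8 T cell markers 15.9 to 36.9 CPM in KO and 12.5 to 15.8 CPM in WT. Of the CD8 markers, Cd8a rose by 1.89 (SE 0.33, edgeR adjusted p = 0.00232) and Cd8b1 did not pass (edgeR log2 fold change 0.50, adjusted p = 0.158). The 3 gamma delta markers tested were higher, and the 2 natural killer markers tested did not pass. The part of these cell types in the Cd160 value was not tested. An exon of Cd160 overlaps one of Pdzk1 on the opposite strand, and Pdzk1 had 9.01, 8.30 and 7.48 CPM in KO and 12.7, 11.7 and 11.4 CPM in WT (edgeR log2 fold change -0.53, SE 0.12, adjusted p = 0.00718), so the Cd160 level is uncertain if counting did not use strand.

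Vsir (ENSMUSG00000020101, chromosome 10, 60346851 to 60372684, plus strand), the gene of VISTA, changed most of the 10. It had 25.7, 27.0 and 28.7 CPM in KO and 133, 119 and 116 CPM in WT. The groups were wide apart and tight within themselves, and the gene was 4.53-fold lower (edgeR log2 fold change -2.18, SE 0.08, adjusted p = 2.46e-06). Its log2 fold change ranked 247 from the lowest of the 14387 rows tested. Vsir lies inside Cdh23, a cadherin gene on the opposite strand, without overlap of exons. Cdh23 had 1.55, 1.53 and 1.38 CPM in KO and 24.2, 24.5 and 20.2 CPM in WT, a log2 fold change of -3.94 in edgeR (SE 0.14, adjusted p = 2.09e-06). Another gene model in the same span, Gm17455, had 0.0863, 0.0744 and 0.172 CPM in KO and 0.997, 1.44 and 1.18 CPM in WT (edgeR log2 fold change -3.40, SE 0.43, adjusted p = 4.78e-04). The genes on either side of Cdh23 did not pass. Psap had 217, 242 and 264 CPM in KO and 246, 245 and 244 CPM in WT (edgeR log2 fold change -0.02, adjusted p = 0.818), and Slc29a3 had 36.7, 29.8 and 26.6 CPM in KO and 36.1, 30.2 and 29.6 CPM in WT (edgeR log2 fold change -0.04, adjusted p = 0.815). Selplg, which encodes PSGL-1, a reported partner of VISTA, fell by 0.68 on the log2 scale (SE 0.12, edgeR adjusted p = 0.00228). VISTA is also made by myeloid cells, of which the macrophage and dendritic cell marker sums are given above with Cd86. Neutrophil markers summed to 0 to 0.186 CPM in KO and 0.76 to 1.39 CPM in WT. All of that was Ly6g, with 0, 5 and 0 counts in KO and 23, 18 and 32 in WT, and S100a8, S100a9 and Elane were at 0 in all libraries. The part of myeloid cells in the Vsir level was not tested.

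**Figure D3:**
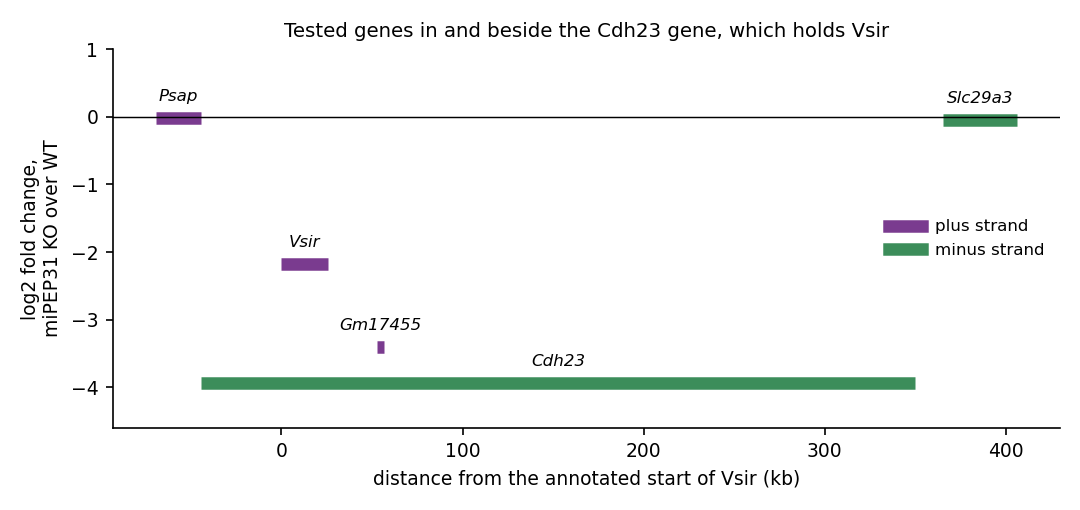
Log2 fold change (miPEP31 KO over WT) of the tested genes in and beside Cdh23, each drawn over its annotated span in kb from the start of Vsir, with purple for the plus strand and green for the minus strand. Cdh23, Vsir and Gm17455 lie at -3.94, -2.18 and -3.40, and the flanking Psap and Slc29a3 at -0.02 and -0.04.

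**Figure D4:**
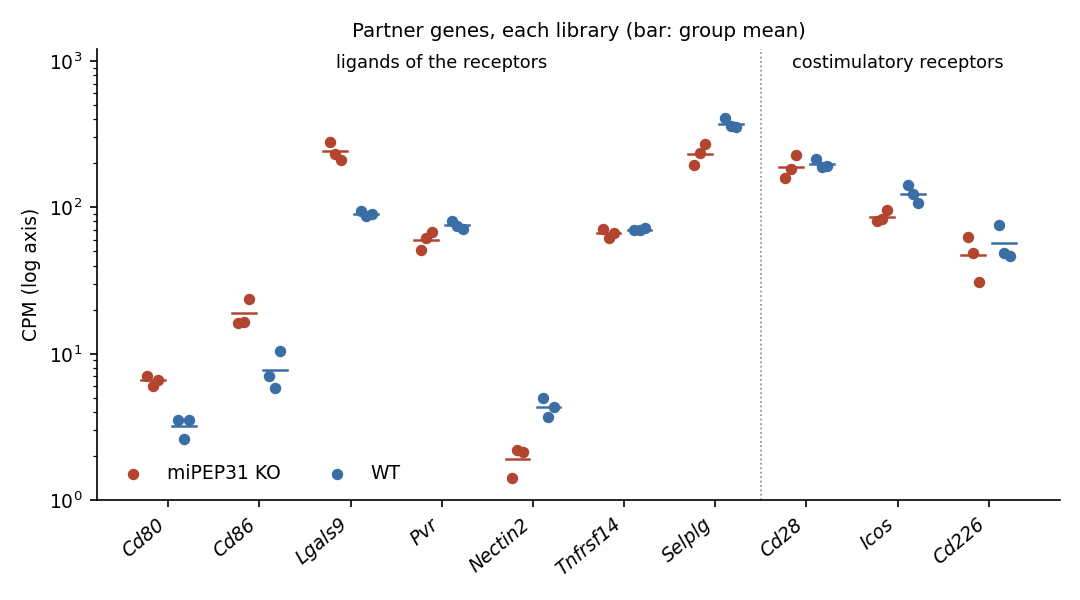
CPM on a log axis of ligand genes of the receptors (left) and of costimulatory receptors (right) in the 3 miPEP31 KO (red) and 3 WT (blue) libraries, with the group mean as a bar. Cd80, Cd86 and Lgals9 lie higher in KO, Nectin2 and Selplg lower, and Tnfrsf14 and Cd28 overlap.

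Levels of different genes were compared as CPM per kb of merged exon. In KO, Ctla4 averaged 162 ± 77.6, Tigit 97.3 ± 23.4, Lag3 72.3 ± 8.40, Pdcd1lg2 47.8 ± 2.84 and Cd274 33.0 ± 4.58 CPM per kb (SD, n = 3). In WT, Ctla4 averaged 228 ± 22.9, Lag3 128 ± 6.53, Tigit 122 ± 3.04, Btla 62.1 ± 4.08 and Pdcd1lg2 32.0 ± 0.472 CPM per kb (SD, n = 3). Both PD-1 ligands thus stood above Btla in the KO means, at 27.8 ± 0.663 CPM per kb, although the KO ranges of Cd274 and Btla overlapped. Lower in the order, Pdcd1 averaged 12.3 ± 3.46, Vsir 5.41 ± 0.307, Havcr2 2.08 ± 0.477 and Cd160 0.272 ± 0.0578 CPM per kb in KO. In WT the corresponding means were 7.39 ± 0.607, 24.5 ± 1.87, 1.69 ± 0.409 and 0.944 ± 0.163 CPM per kb. Among neighbours in the order, the library ranges of Ctla4 and Tigit, of Tigit and Lag3 and of Cd274 and Btla overlapped in KO, and in WT those of Lag3 and Tigit only. Vsir ranked 8 of the 10 in KO and 6 in WT, below Pdcd1 in KO and above both Cd274 and Pdcd1 in WT.

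The 8 receptors summed to 284, 365 and 490 CPM per kb in KO and 595, 574 and 554 CPM per kb in WT, and every KO library was lower. Most of that sum was Ctla4, Tigit and Lag3. The share of Ctla4 was 34.1%, 38.9% and 50.6% in KO and 42.1%, 39.8% and 36.9% in WT, so the groups overlapped. Btla held 10.1%, 7.57% and 5.56% in KO and 11.1%, 10.1% and 11.1% in WT, with KO replicate 1 at the lower end of WT. Vsir held 1.81%, 1.47% and 1.17% in KO and 4.47%, 4.13% and 4.17% in WT. The ligands summed to 85.9, 83.9 and 72.7 CPM per kb in KO and 52.2, 50.3 and 48.5 CPM per kb in WT.

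The KO libraries differed among themselves more than the WT libraries in 7 of the 10 genes. The share of all genes with a wider range in KO was not computed. Their median range was also wider in KO, at 0.30 on the log2 scale against 0.19 in WT, so this was not particular to the 10. Ctla4 had a KO range of 1.36, wider than in 94.8% of genes, Pdcd1 one of 0.78 and Tigit one of 0.71. Among the KO libraries, Ctla4, Tigit, Lag3, Havcr2 and Vsir were lowest in replicate 1, where Pdcd1, Cd274, Btla and Cd160 were highest. In KO replicate 3, Ctla4 and Tigit stood at 0.13 and -0.04 from the WT mean on the log2 scale, and Vsir and Btla at -2.09 and -1.18.

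**Figure D5:**
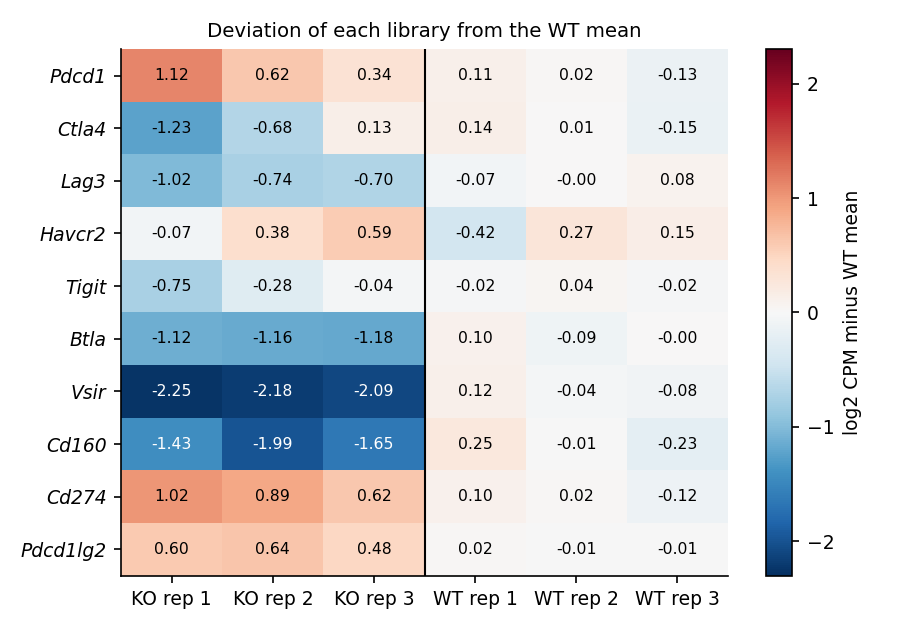
Log2 CPM of each gene minus its WT mean, for the 3 miPEP31 KO libraries (left) and the 3 WT libraries (right). Ctla4 lies at -1.23 in the first KO column and 0.13 in its last, whereas Vsir lies between -2.25 and -2.09 and Btla between -1.18 and -1.12 in KO.

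Genes of activation and of regulatory T cells are given beside that spread. Foxp3, the factor that specifies regulatory T cells, had 35.8, 37.6 and 24.0 CPM in KO and 7.54, 10.3 and 8.53 CPM in WT, and rose by a log2 fold change of 1.89 in edgeR (SE 0.19, adjusted p = 1.77e-04). Among the KO libraries it was lowest in replicate 3, where Ctla4 and Tigit were highest. Il2ra, the gene of CD25, had 2349, 2962 and 3382 CPM in KO and 2188, 2320 and 2306 CPM in WT (edgeR log2 fold change 0.35, SE 0.12, adjusted p = 0.0391). Its KO libraries stood in the order of Ctla4 and Tigit, and the part of regulatory T cells in these genes was not tested. Cd69, an early activation gene, had 235, 163 and 112 CPM in KO and 37.2, 29.8 and 30.6 CPM in WT (edgeR log2 fold change 2.39, SE 0.25, adjusted p = 1.99e-04). Of the other activation genes, Cd44 and Tnfrsf4 rose by 0.49 (SE 0.15) and 0.55 (SE 0.05), the proliferation gene Mki67 fell by 0.50 (SE 0.10), and Tfrc and Cd38 did not pass. Among 7 genes of naive T cells, 6 were lower (22.2% over all rows). Klf2 fell by 1.27 (SE 0.25), Il7r by 0.99 (SE 0.21), Ccr7 by 0.92 (SE 0.11), Lef1 by 0.68 (SE 0.05) and Satb1 by 0.38 (SE 0.12), and S1pr1 did not pass (edgeR log2 fold change 0.40, adjusted p = 0.105). The part of activation state in the levels of the co-inhibitory genes was not tested.

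The transcription factors known to control co-inhibitory genes went both ways. Of 19, 9 were higher (25.1% over all rows), 5 lower (22.2% over all rows) and 5 did not pass (median log2 fold change 0.32). Tox, a factor of chronic stimulation that sustains Pdcd1 expression in CD8 T cells, had 20.9, 15.1 and 14.7 CPM in KO and 6.46, 5.70 and 6.92 CPM in WT, a log2 fold change of 1.41 in edgeR (SE 0.17, adjusted p = 3.52e-04). Tbx21, the gene of T-bet, rose by 1.01 (SE 0.12). Nr4a1, an orphan nuclear receptor induced by the T cell receptor, had 116, 101 and 82.6 CPM in KO and 200, 193 and 188 CPM in WT and fell by 0.96 (SE 0.11, edgeR adjusted p = 3.74e-04). Prdm1 and Maf, named after their values were seen, had KO libraries in the order of Ctla4. Others of the list had the reverse order in KO, such as Eomes (21.4, 15.3 and 9.89 CPM) and Nr4a3 (71.4, 43.8 and 20.2 CPM). In WT, Prdm1 and Maf were lowest in replicate 1, where Ctla4 was highest. A link of these orders to Ctla4 was not tested. Prdm1 had 36.3, 61.9 and 96.3 CPM in KO and 12.1, 18.3 and 15.0 CPM in WT (edgeR log2 fold change 2.10, SE 0.33, adjusted p = 0.00143). Maf had 71.6, 134 and 232 CPM in KO and 20, 37.8 and 34.5 CPM in WT (edgeR log2 fold change 2.24, SE 0.41, adjusted p = 0.00306).

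Other inhibitory receptors of T cells had 5 of 11 tested genes higher (25.1% over all rows), 3 lower (22.2% over all rows) and 3 that did not pass. Their median log2 fold change was 0.52. Cd6 and Cd5, scavenger-receptor family members that restrain T cell receptor signalling, rose by 0.93 (SE 0.07) and 0.73 (SE 0.06). Cd6 had 674, 639 and 575 CPM in KO and 339, 323 and 332 CPM in WT. Cd200r1, the receptor of CD200, had 7.94, 12.2 and 12.7 CPM in KO and 1.21, 1.82 and 1.04 CPM in WT (edgeR log2 fold change 3.01, SE 0.27, adjusted p = 1.01e-04). Pecam1, a receptor with inhibitory tyrosine motifs, fell by 1.27 (SE 0.14, edgeR adjusted p = 2.44e-04). Ligand genes other than those of PD-1 had 3 of 12 higher, 4 lower and 5 that did not pass (median 0.09), against the same shares. The number lower was 2 without KO replicate 2 or without WT replicate 2 or 3.

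Of 11 costimulatory genes 6 were lower (22.2% over all rows), 2 higher (25.1% over all rows) and 3 did not pass (median -0.35). Cd2, the adhesion receptor of CD48, fell by 0.41 (SE 0.08), and Slamf1 by 0.49 (SE 0.10). Havcr1, the gene of TIM-1, had 0 counts in all KO libraries and 14, 19 and 19 counts in WT, and was at least 18.2-fold lower when KO is set to a floor of 3 counts for the group. The 2 higher genes were Crtam and Ly9, and this count was 1 without KO replicate 1 and 0 without KO replicate 2 or any 1 of the WT libraries.

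Among 21 genes of signal relay and trafficking 7 were higher (25.1% over all rows), 7 lower (22.2% over all rows) and 7 did not pass (median -0.10). The number lower was 4 without KO replicate 2 or WT replicate 2. Cblb, a ubiquitin ligase that sets the need for CD28 costimulation, had 107, 102 and 98.2 CPM in KO and 391, 341 and 323 CPM in WT (edgeR log2 fold change -1.78, SE 0.08, adjusted p = 6.15e-06). Sh2d1a, the gene of the adaptor SAP, fell by 1.32 (SE 0.13). Ap2m1, a subunit of the clathrin adaptor that takes CTLA-4 from the surface, rose by 0.62 (SE 0.06), and Stub1, a ubiquitin ligase, by 0.72 (SE 0.07). Of the phosphatases that inhibitory tails recruit, Ptpn6 (SHP-1) fell by 0.60 (SE 0.06, edgeR adjusted p = 1.95e-04) and Ptpn11 (SHP-2) rose by 0.32 (SE 0.10, edgeR adjusted p = 0.0268). Cmtm6, which keeps PD-L1 at the surface, rose by 0.34 (SE 0.07, edgeR adjusted p = 0.00638).

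For each gene the most alike pattern over the 6 libraries was sought among 9563 genes of at least 5 CPM, by Pearson's r of log2 CPM. All such r hold the difference between the genotypes, and 361 or more genes exceeded 0.9 for every member but Havcr2, so they only describe these libraries. Ctla4 was most like Susd3 (r = 0.994), which had 14.6, 19.4 and 30.8 CPM in KO and 31.3, 30.2 and 28.6 CPM in WT. Vsir was most like Pim2, Btla like Tmem108, Tigit like Maml1 and Pdcd1 like Dnajc10 (r = 0.999 each). Cd274 was most like Bcl2l1 and Pdcd1lg2 like Sesn2 (r = 0.998 each), Cd160 like Mrpl18 (r = 0.998), Lag3 like Rassf2 (r = 1.000) and Havcr2 like Peli1 (r = 0.985), for which 27 genes exceeded 0.9.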

How the data were processed

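Estimated counts for each gene were deposited by the authors, with 72.2% of the values above 0 whole, together with a table of 30 centred values that holds none of these genes and was not used. Bowtie 0.12.2 and build mm8 appear in the submitters' processing notes, with no role stated. How reads were counted, on which annotation and whether by strand was not given in the sources used here. Counts were rounded to whole numbers. Gene IDs were matched to GENCODE M21, whose GRCm38 coordinates are given, not converted from another build. The 944 rows with MSTRG IDs (0.903% to 1.56% of a library) were kept. No column of values was left unmatched.

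Rows were kept with filterByExpr (minimum count 10), which kept 99.9% of each library, scaled with TMM and tested with the edgeR 4.0.16 quasi-likelihood test, robust and with no covariate, with Benjamini-Hochberg adjustment over 14387 rows. Fits were run in R 4.3.3. SE is the unshrunk log2 fold change divided by √F, and intervals are 95%. Alternatives were DESeq2 1.42.0, limma 3.58.1 (voom), other scalings and filters, a replicate block and leaving out each library. Scripts were tested on simulated data.

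The members, lists and tests were chosen with earlier results of these data known. Named genes were the members, up to 4 called genes per list by smallest p, all activation genes, overlapping genes and the most alike gene. Other genes of the lists, marker examples and neighbours were named after their values were seen. Some genes that this rule names are not reported here.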

Additional observations from a re-analysis of the deposited data

How the results depend on the processing

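Directions held for all 10 genes under every alternative. Calls changed when 1 library was left out. Pdcd1 ranged from 0.48 to 0.87 in log2 fold change, with its call lost once (edgeR adjusted p 0.00141 to 0.0595). Ctla4 ranged from -0.94 to -0.23 and Tigit from -0.51 to -0.16, each called lower only without KO replicate 3. Members lower were 4 to 6 and members higher 2 to 3. Ligand genes lower ranged from 2 to 4 and were 2 with plain library sizes and with the replicate block. Costimulatory genes higher ranged from 0 to 2, and were 1 with upper-quartile scaling, with at least 1 CPM in 3 libraries, with limma-voom and with the replicate block, and 0 without the low-count filter. Signal relay genes lower ranged from 4 to 9. With 1 library left out, inducers of PD-1 ligands higher ranged from 6 to 9 and lower from 1 to 4. The cause was not tested. Over all genes, calls with 1 library left out were 2723 to 3655 higher and 2419 to 3594 lower, and with the other alternatives 3049 to 4088 higher and 2687 to 3473 lower.

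Same-numbered libraries did not deviate together (r 0.00, -0.01 and -0.02), and 0 of 6 libraries were closest to their own number. The replicate block gave 3049 higher and 2687 lower genes and changed no call among the 10. Cd160 rests on 15 to 68 counts a library, which limits its precision.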
